A study of Mus musculus with 92 samples.

Results

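The 10 genes described here code for proteins that coat the lipid droplet or that break down and build its triglyceride: Plin2, Plin3, Plin4 and Plin5 (perilipins), Pnpla2, Lipe and Mgll (lipases), G0s2 (a lipase inhibitor), and Dgat1 and Dgat2 (acyltransferases). They were chosen by gene symbol, and all 10 were found among the 13441 genes of the table. RNA was sequenced from 92 samples of the quadriceps, a thigh muscle, of DOz mice, an outbred stock in which animals differ in the alleles they inherited. Each sample is called an animal here, though the labels do not say that each came from a different mouse. The mice had lived on standard rodent chow and were about 18 to 20 weeks old, so they form 1 group with no treated or untreated contrast. Libraries came from the KAPA mRNA HyperPrep kit, which selects messenger RNA. What can be compared is the level of each transcript, its spread between animals, and its relation to markers of fat cells and to genes of muscle fibres.

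Fat is stored as triglyceride in lipid droplets, which are wrapped in perilipins that control the access of lipases to the core. Breakdown runs in steps: adipose triglyceride lipase (Pnpla2) releases a first fatty acid, hormone-sensitive lipase (Lipe) acts on the diacylglycerol, and monoacylglycerol lipase (Mgll) finishes, while G0s2 binds and inhibits the enzyme made by Pnpla2. Dgat1 and Dgat2 catalyse the last step of triglyceride synthesis. In muscle, droplets lie inside the fibres near mitochondria, and a dissected muscle also holds fat cells between its fibres, so the same transcript can come from either source.

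The values are log2 per-million expression levels, and sums over a list are in per-million units. The mean of Myh4, the myosin of the fastest fibres, was 15.90 ± 0.24 (SD, n = 92), against 12.39 ± 0.41 for Myh1, 11.14 ± 0.49 for Myh2 and 4.53 ± 1.87 for the slow myosin Myh7, whose range was 0.51 to 8.41. The 12 fat-cell (adipocyte) markers summed to 126.5 in the lowest animal, 268.2 at the median and 1429 in the highest. Plin1, the perilipin of fat cells, ranged from -0.00500 to 6.97 with a median of 3.96, and leptin (Lep) was at -3.86 in its lowest animal, so fat-cell transcripts differed widely between dissected muscles. The summed levels of the other marker lists, from the lowest through the median to the highest animal, were 42.99, 99.3 and 607 for macrophages, 162, 286.9 and 367 for endothelium, 486, 882 and 2410 for fibroblasts, 14.5, 42.9 and 107 for Schwann cells and 176, 792 and 25249 for blood. The depth of the libraries is unknown, so the spread between animals is the only error that can be given, and it joins biological to technical variation.

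Per kilobase of exon, Pnpla2 and Plin4 were the most abundant of the 10 transcripts and Dgat1 the least. The mean log2 of the per-million level per kilobase of exon was 5.93 ± 0.32 (SD, n = 92) for Pnpla2 and 5.30 ± 0.44 for Plin4. Mgll followed at 3.76 and Plin2 at 3.26, and both were far below that pair: Plin4 exceeded Mgll by 1.55 ± 0.51 on this log2 scale, in 92 of 92 animals. The next levels were 2.85 for Dgat2, 2.67 for Plin3, 2.26 for Plin5, 2.24 for Lipe, 2.04 for G0s2 and 1.46 for Dgat1. Several neighbours in the lower part of that order did not differ beyond their spread. Dgat2 exceeded Plin3 by 0.18 ± 0.82 and in 52 animals, Plin5 exceeded Lipe by 0.02 ± 0.67 and in 49 animals, and Lipe exceeded G0s2 by 0.20 ± 0.81 and in 55 animals. By contrast, Pnpla2 was above Plin4 by 0.62 ± 0.45 in 85 animals, and Mgll above Plin2 by 0.49 ± 0.33 in 84. This order rests on the division by exon length, and whether the deposited values already allow for length is not stated. Without that division Plin4 (7.83) had a higher mean than Pnpla2 (7.52), and G0s2 (1.84) was lowest, below Dgat1 (3.07). Lipe was then 5th of the 10 in place of 8th.

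**Figure D1:**
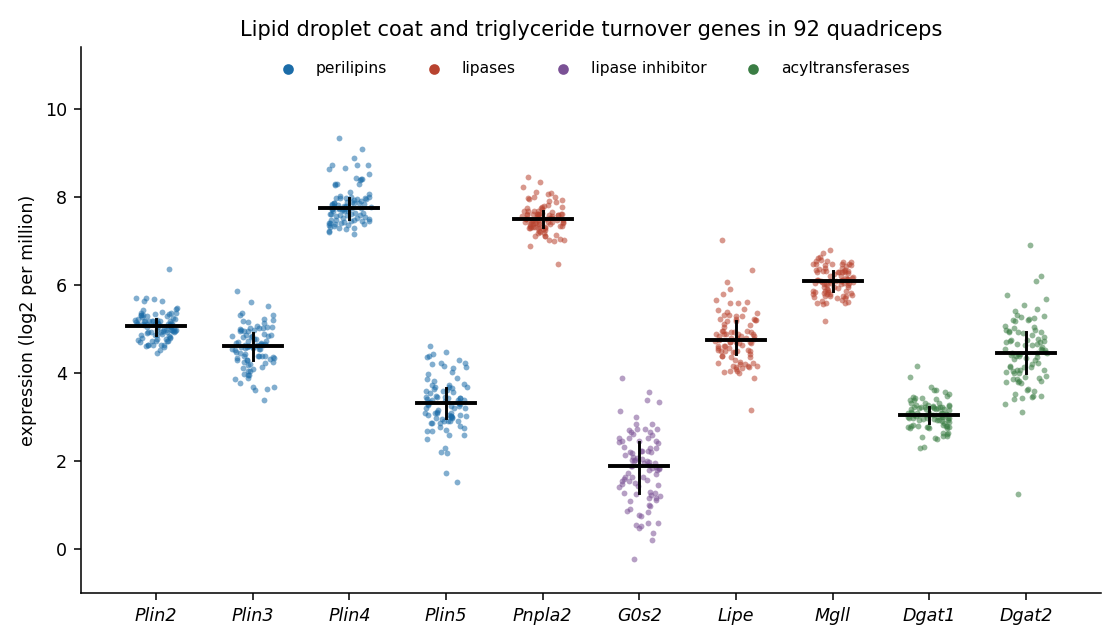
Expression of the 10 genes (vertical axis, log2 per-million level, not divided by length) in each of the 92 quadriceps samples, 1 point per animal, coloured by role, with a horizontal bar at the median and a vertical bar over the quartiles. Plin2, Mgll and Pnpla2 form tight columns apart from single extreme animals, G0s2 spreads from -0.22 to 3.89, and Dgat2 has 1 animal at 1.26 below a lowest neighbour at 3.13.

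Of the 4 perilipins, Plin2 had the smallest SD between animals and Plin5 the largest. Plin2 (ENSMUSG00000028494; GRCm38 chromosome 4, 86648386 to 86670060, minus strand), the coat protein present on droplets of nearly all tissues, had a lowest, median and highest value of 4.47, 5.08 and 6.36 and a mean of 5.07 ± 0.31 (SD, n = 92). Its highest animal stood apart, since the next was at 5.70. Plin4 (ENSMUSG00000002831; chromosome 17, 56100591 to 56109803, minus strand), a coat protein abundant in fat and muscle, ran from 7.17 through 7.75 to 9.34, with a mean of 7.83 ± 0.44 and a tail toward high values (skewness 1.10). Plin5 (ENSMUSG00000011305; chromosome 17, 56111601 to 56117596, minus strand), the coat protein of oxidative tissues that tethers droplets to mitochondria, ran from 1.53 through 3.32 to 4.61, with a mean of 3.32 ± 0.58. The highest animal had 8.45 times the Plin5 level of the lowest. Plin3 (ENSMUSG00000024197; chromosome 17, 56277476 to 56292873, minus strand), which moves from the cytosol onto young droplets, ran from 3.40 through 4.61 to 5.86, with a mean of 4.59 ± 0.47. Set against the SD that a trend over all genes gives at the same mean, Plin2 had 0.31 against 0.23 (percentile 77.8 of all genes for the excess), Plin3 0.47 against 0.24 (93.5), Plin4 0.44 against 0.21 (94.5) and Plin5 0.58 against 0.30 (93.5). Plin3, Plin4 and Plin5 thus varied more than most genes of their level, and Plin2 less so.

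Plin4 and Plin5 are neighbours on the same strand, with 1797 bases between them, and Plin3 lies 159879 bases beyond Plin5. Because these 3 genes passed for a score of PPAR target genes and Plin2 did not, the 250 bases before a RefSeq transcript start (GRCm38.p6, minus strand) are printed for the 4 perilipins, 5′ to 3′. Capitals mark the nuclear receptor half-site AGGTCA and the CCAAT box, each on either strand, so TGACCT and ATTGG are capitals too. The windows are chr4:86670060-86670309 for Plin2, chr17:56290512-56290761 for Plin3, chr17:56109783-56110032 for Plin4 and chr17:56117549-56117798 for Plin5.
Plin2: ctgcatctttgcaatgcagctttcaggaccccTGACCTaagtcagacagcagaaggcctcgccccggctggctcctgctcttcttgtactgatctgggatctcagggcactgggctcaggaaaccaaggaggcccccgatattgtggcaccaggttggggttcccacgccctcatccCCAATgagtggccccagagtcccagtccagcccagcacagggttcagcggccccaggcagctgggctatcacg
Plin3: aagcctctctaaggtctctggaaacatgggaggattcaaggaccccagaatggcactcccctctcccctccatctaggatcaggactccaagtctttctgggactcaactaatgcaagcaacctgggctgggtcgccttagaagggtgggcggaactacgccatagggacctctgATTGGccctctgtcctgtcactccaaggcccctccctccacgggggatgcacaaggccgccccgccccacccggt
Plin4: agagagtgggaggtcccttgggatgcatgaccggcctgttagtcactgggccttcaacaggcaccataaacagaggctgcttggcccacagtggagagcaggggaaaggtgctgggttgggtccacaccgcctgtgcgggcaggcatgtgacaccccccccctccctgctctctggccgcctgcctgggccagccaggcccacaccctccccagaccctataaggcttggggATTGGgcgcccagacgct
Plin5: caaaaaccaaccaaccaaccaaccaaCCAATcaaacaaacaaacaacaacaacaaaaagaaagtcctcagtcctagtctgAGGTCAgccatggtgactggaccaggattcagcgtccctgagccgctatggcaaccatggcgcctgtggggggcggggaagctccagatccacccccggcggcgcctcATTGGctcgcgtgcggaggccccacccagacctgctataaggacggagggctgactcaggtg

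RefSeq windows were found for 8 of the 10 genes, 11 windows in all, and not for Dgat1 and Dgat2. CCAAT was in 4 of the 11 windows, 1 for each of the 4 perilipins, and in 33.9% of the 32841 windows of all genes, so its share was near that of all windows. Its first base lay 73 bases before the start in Plin2, 75 in Plin3, 18 in Plin4, and 62 and 224 in Plin5. AGGTCA was in 2 of the 11 windows, those printed for Plin2 and Plin5, and in 14.03% of all windows. Plin5 has another window, of the 250 bases just downstream, with 0 matches to CCAAT and 0 to AGGTCA. A direct repeat of AGGTCA with 1 further base of any kind between the copies, the arrangement bound by PPAR with its partner receptor, was in 0 of the 11 windows and in 0.0335% of all. GGGCGG was in a window of Plin3, Plin5, Pnpla2, Lipe, G0s2 and Mgll (32.8% of all windows), CACGTG in those of Lipe and Mgll (6.02%) and TATAAA in 0 (12.4%). These motifs do not overlap each other apart from AGGTCA within its repeat. A match is a description of letters, and binding was not measured here.

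Among the lipases, Lipe differed between animals far more than Pnpla2 and Mgll. Lipe (ENSMUSG00000003123; chromosome 7, 25379527 to 25398710, minus strand) had a lowest, median and highest value of 3.17, 4.75 and 7.02, a mean of 4.80 ± 0.58 (SD, n = 92) and a 14.4-fold range, which was 8.72-fold without the lowest animal. Its SD of 0.58 compared with 0.24 on the trend, at percentile 96.5 of all genes. Pnpla2 (ENSMUSG00000025509; chromosome 7, 141455198 to 141460743, plus strand) ran from 6.47 through 7.49 to 8.45, with a mean of 7.52 ± 0.32, and Mgll (ENSMUSG00000033174; chromosome 6, 88724412 to 88828360, plus strand) from 5.18 through 6.09 to 6.79, with a mean of 6.10 ± 0.31. Their ranges were 3.94-fold and 3.05-fold. G0s2 (ENSMUSG00000009633; chromosome 1, 193272161 to 193273217, minus strand) ran from -0.22 through 1.89 to 3.89, with a mean of 1.84 ± 0.79 and a 17.3-fold range around a low level. The exons of Lipe share 918 bases with the antisense gene 4732471J01Rik, whose mean was 1.71 and whose correlation with Lipe was 0.139. The shared exon bases were 17 for Plin4 and Hdgfl2 (correlation -0.150) and 167 for Mgll and Gm26588, which was not analysed here. Whether the counting used strand is not given in the sources used here, so reads of these overlaps cannot be told apart.

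The acyltransferases differed in spread. Dgat1 (ENSMUSG00000022555; chromosome 15, 76502015 to 76511953, minus strand) ran from 2.30 through 3.05 to 4.15, with a mean of 3.07 ± 0.32 (SD, n = 92), which was the SD of the trend (0.32, percentile 51.9). Dgat2 (ENSMUSG00000030747; chromosome 7, 99153658 to 99182719, minus strand) ran from 1.26 through 4.47 to 6.91, with a mean of 4.47 ± 0.77 against a trend SD of 0.25. Its excess was at percentile 98.5 and its range was 50.1-fold. The lowest animal for Dgat2 stood apart, because the next lowest was at 3.13, and without it the range was 13.8-fold.

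Of the 10 genes, 7 rose with the fat-cell score and 0 fell, against 3.63% of all genes past the threshold in either direction and 3.28% rising. The score averages 12 standardised adipocyte markers (Adipoq, Plin1, Cidec, Cidea, Lep, Cfd, Retn, Adig, Fabp4, Acvr1c, Adrb3, Trarg1), none of which is among the 10 genes, and slopes are given as log2 change for 1 SD of that score. The threshold is a limma p-value under 0.05 after Benjamini-Hochberg adjustment over all genes tested. Fabp4, which capillary endothelium also expresses, had the highest mean of the list at 7.51, and the other 11 markers had means from 0.49 to 4.23. The median slope of the 10 genes was 0.16, against -0.00289 over all genes. In whole muscle, more fat cells and more transcript per fat cell cannot be told apart.

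The steepest slopes were those of Dgat2 and Lipe. Dgat2 rose by 0.63 ± 0.05 (SE) log2 per SD of the score (limma adjusted p = 2.63e-21), a factor of 1.54, and Lipe rose by 0.53 ± 0.02 (limma adjusted p = 3.69e-36), a factor of 1.45. For Lipe the correlation with the score over 92 animals was r = 0.921 and rho = 0.902 (both permutation p = 1e-05, the smallest possible with 100000 resamples), r = 0.900 once the 2 animals with the most extreme scores were left out, and 0.898 to 0.946 inside the 5 blocks of sample numbers. For Dgat2 it was r = 0.816 and rho = 0.776 (both permutation p = 1e-05), 0.776 once they were left out, and 0.742 to 0.913 inside blocks. The score accounted for 84.8% of the variance of Lipe and 66.6% of that of Dgat2, so most of the spread of these 2 genes between muscles ran along the fat-cell markers.

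Mgll, Dgat1 and G0s2 also rose with the fat-cell score. Mgll rose by 0.21 ± 0.02 (SE; limma adjusted p = 5.76e-12), with r = 0.684 and rho = 0.663 (both permutation p = 1e-05), r = 0.665 once the 2 most extreme animals were left out and 0.579 to 0.856 inside blocks. Dgat1 rose by 0.18 ± 0.03 (limma adjusted p = 3.83e-07), with r = 0.570 and rho = 0.504 (both permutation p = 1e-05), r = 0.532 once those 2 were left out and 0.336 to 0.780 inside blocks. G0s2 rose by 0.31 ± 0.08 (limma adjusted p = 0.00396), with r = 0.394 (permutation p = 0.00013), rho = 0.391 (permutation p = 0.00012), r = 0.385 once those 2 were left out and 0.0691 to 0.840 inside blocks. The slope of G0s2 was steeper than those of Mgll and Dgat1 but its scatter was larger, and the score accounted for 15.5% of its variance against 46.8% for Mgll and 32.5% for Dgat1.

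Pnpla2 and Plin2 rose with the fat-cell score, but neither passed without the 2 most extreme animals. Pnpla2 rose by 0.15 ± 0.03 (SE; limma adjusted p = 0.000264), with r = 0.455 (permutation p = 2e-05), rho = 0.372 (permutation p = 0.00038) and 0.281 to 0.557 inside blocks. With the 2 most extreme animals left out its r was 0.332, its slope 0.10 and its limma adjusted p 0.0508, so it no longer passed, and its 10 alternatives ranged from 0.000264 to 0.0508. Plin2 rose by 0.12 ± 0.03 (limma adjusted p = 0.00825), with r = 0.376 (permutation p = 0.00031), rho = 0.282 (permutation p = 0.00642) and 0.0865 to 0.839 inside blocks. With those 2 left out its r was 0.304, its slope 0.08 and its limma adjusted p 0.103, and its 10 alternatives ranged from 0.00768 to 0.103.

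Plin3, Plin4 and Plin5 did not pass for the fat-cell score. Their slopes were 0.07 (95% confidence interval -0.03 to 0.17; limma adjusted p = 0.555), 0.11 (0.02 to 0.20; limma adjusted p = 0.185) and 0.12 (0.00473 to 0.24; limma adjusted p = 0.327), and they passed in 0 of 10 alternatives each. The intervals leave room for slopes as large as that of Plin2 or Pnpla2 and end well below those of Lipe and Dgat2. Across the animals the fat-cell score had weak correlations with the scores of macrophages (r = 0.229), fibroblasts (0.216) and Schwann cells (0.259), and lower ones with endothelium (0.0649) and blood (0.0654). With the scores of these 5 cell types in the model, the 7 genes that rose still passed.

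**Figure D2:**
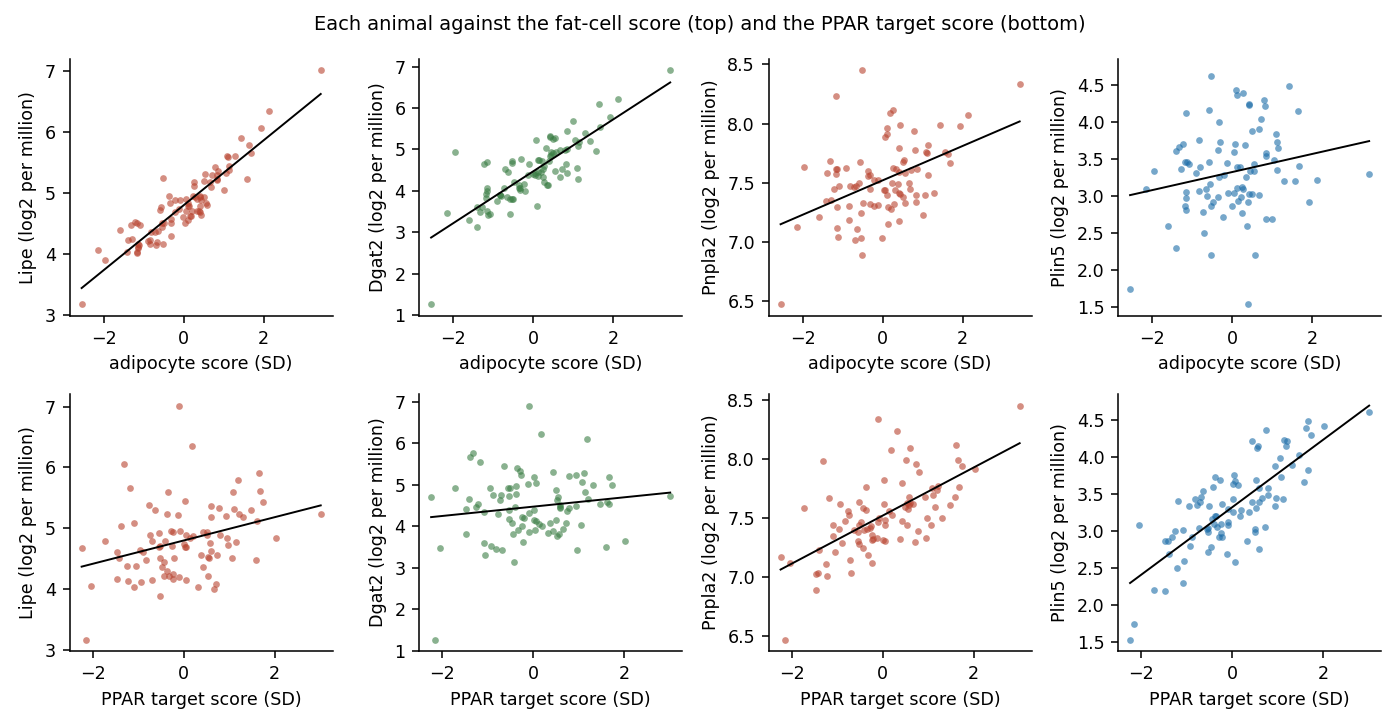
Lipe, Dgat2, Pnpla2 and Plin5 (vertical axes, log2 per-million level) in each of the 92 animals against the adipocyte score (upper panels) and the PPAR target score (lower panels), both in SD, with a least squares line. Lipe and Dgat2 follow the adipocyte score closely, Plin5 follows the PPAR target score, and Pnpla2 slopes upward in both panels.

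For the genes of slow fibres, 0 of the 10 transcripts passed. The slow fibre score is the mean of 10 standardised genes (Myh7, Tnnt1, Tnni1, Tnnc1, Myl2, Myl3, Atp2a2, Myh7b, Casq2, Myoz2), which summed to 82.2 in the lowest animal, 236 at the median and 1477 in the highest. Of the 10 droplet genes, 0 passed for this score by limma and 2 had an unadjusted p under 0.05, against shares of 0.834% and 11% over all genes. Those 2 were Plin5, with a slope of 0.15 ± 0.06 (SE; limma adjusted p = 0.269), and Plin3, with 0.12 ± 0.05 (limma adjusted p = 0.270). Their 95% confidence intervals were 0.04 to 0.27 and 0.03 to 0.22. Lipe had a slope of -0.07 (-0.19 to 0.05), Dgat2 0.04 (-0.12 to 0.20) and Mgll -0.00636 (-0.07 to 0.06).

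Plin3 and Plin5 rose with Myh2, the myosin of fast oxidative fibres. The slope per SD of Myh2 was 0.22 ± 0.04 (SE; limma adjusted p = 0.000306) for Plin3 and 0.22 ± 0.06 (limma adjusted p = 0.00859) for Plin5. These were 2 of the 10 genes, where 5.26% of all genes passed and 2.91% rose. For Plin3 the correlation was r = 0.470 and rho = 0.465 (both permutation p = 1e-05), r = 0.475 once the 2 most extreme animals were left out, and 0.394 to 0.617 inside blocks. For Plin5 it was r = 0.378 (permutation p = 0.00027), rho = 0.2995 (permutation p = 0.00396) and r = 0.347 once those 2 were left out. Within blocks Plin5 ranged from -0.0247 to 0.633, so its sign was the same in 4 of the 5 blocks. Plin4 (slope 0.10, limma adjusted p = 0.192) and Pnpla2 (0.08, 0.142) did not pass, but their rho was near that of Plin5. It was 0.287 for each (permutation p = 0.00559 and 0.00599). For Dgat2 rho was 0.233 (permutation p = 0.0262).

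Plin5 alone of the 10 passed for the fast glycolytic fibre score, and it fell. The score holds Myh4, Mybpc2, Tnnt3, Tnni2, Actn3, Pvalb, Atp2a1, Myl1, Mylpf and Casq1, which summed to 97981, 150908 and 198293 in the lowest, median and highest animal. Plin5 had a slope of -0.20 ± 0.06 (SE; limma adjusted p = 0.00641), with r = -0.347 (permutation p = 0.00074), rho = -0.311 (permutation p = 0.00259), r = -0.337 once the 2 most extreme animals were left out and -0.770 to -0.207 inside blocks. Over all genes 21.7% passed for this score and 10.9% fell, so 1 of 10 is no more than the background share. G0s2 and Dgat2 had slopes of -0.18 each, with limma adjusted p-values of 0.0849 and 0.0857. With ranks of the score in place of its values Dgat2 passed (-0.20, limma adjusted p = 0.0487), in a range of 0.0487 to 0.764 over 10 alternatives. Over these its slope ran from -0.20 to 0.05, so its sign was not kept. The score had r = -0.474 with the macrophage and -0.414 with the fibroblast score, and the slope of Plin5 passed in all 10 alternatives, which include the scores of 5 other cell types as covariates.

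Plin5 and Pnpla2 passed for the genes of mitochondrial respiration. The oxidative phosphorylation score holds 12 nuclear-encoded subunits (among them Ndufs1, Ndufv1, Ndufa9, Sdha, Sdhb, Uqcrc1, Uqcrc2, Uqcrfs1, Cyc1, Cox4i1, Cox5a), which summed to 3436, 4410 and 5669 in the lowest, median and highest animal. Plin5 rose by 0.26 ± 0.05 per SD of this score (SE; limma adjusted p = 0.000365) and Pnpla2 by 0.13 ± 0.03 (limma adjusted p = 0.00124), 2 of the 10 genes where 9.23% of all genes passed and 6.19% rose. With only 10 genes, a count of 2 is not far above that share. For Plin5 the correlation was r = 0.441 (permutation p = 3e-05), rho = 0.331 (permutation p = 0.00118), r = 0.419 once the 2 most extreme animals were left out and -0.108 to 0.605 inside blocks. For Pnpla2 it was r = 0.414 (permutation p = 7e-05), rho = 0.417 (permutation p = 4e-05), r = 0.378 once those 2 were left out and 0.00952 to 0.628 inside blocks. Plin3 had a slope of 0.13 ± 0.05 with a limma adjusted p of 0.0555, and it passed in 6 of 10 alternatives, over which its adjusted p ranged from 0.00172 to 0.0622. Dgat2 (slope 0.04, limma adjusted p = 0.804) passed in 1 of 10, with 3 principal components as covariates (0.21, limma adjusted p = 0.0149).

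**Figure D3:**
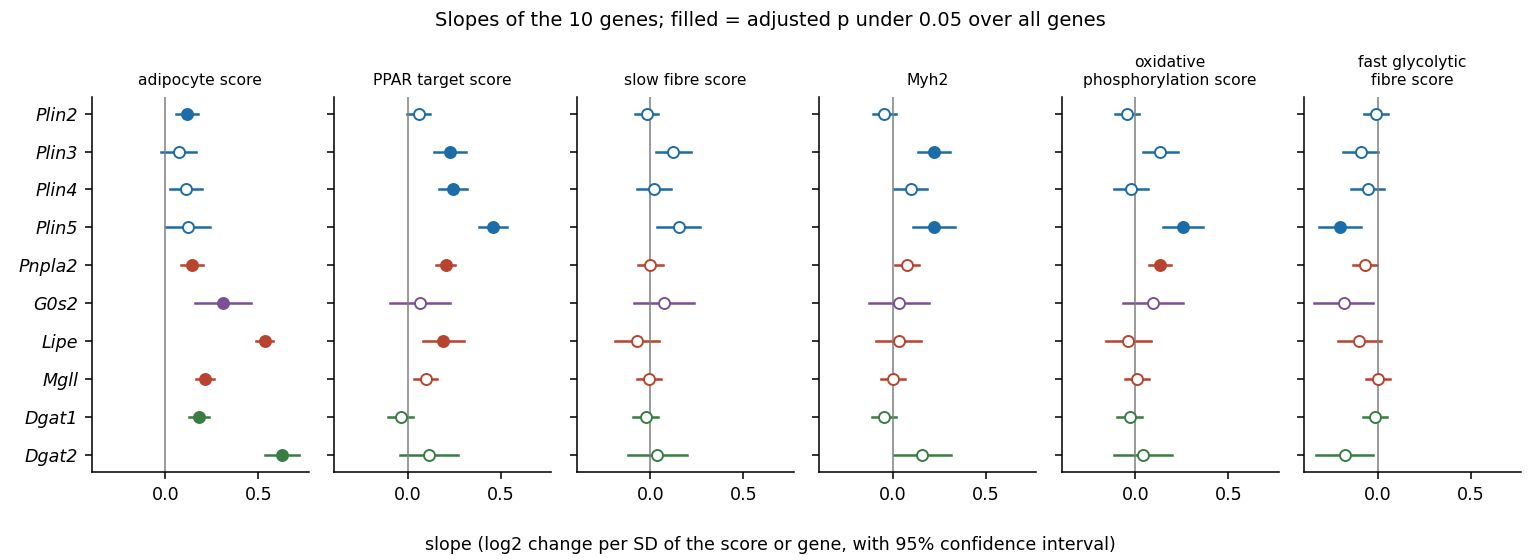
Slope of each of the 10 genes (horizontal axis, log2 change per SD, with its 95% confidence interval) on the adipocyte, PPAR target, slow fibre, oxidative phosphorylation and fast glycolytic fibre scores and on Myh2, each fitted alone over 92 animals. Filled points passed the threshold over all genes: 7 for the adipocyte score, 5 for the PPAR target score, 0 for the slow fibre score, 2 for Myh2, 2 for oxidative phosphorylation and 1, with a negative slope, for fast glycolytic fibres.

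Plin3, Plin4, Plin5, Pnpla2 and Lipe rose with the targets of PPAR, the family of fatty acid-sensing receptors. The list holds 11 genes of fatty acid use (among them Pdk4, Angptl4, Ucp3, Cpt1b, Acot1, Acot2, Slc25a20, Slc22a5, Acadm, Hadha), of which 10 were in the table and Acot1 was not analysed here. They summed to 1058, 1990 and 5010 in the lowest, median and highest animal, and Pdk4, the most abundant, had a mean of 9.82 ± 0.97 (SD, n = 92). Of the 10 droplet genes 5 rose with this score and 0 fell, where 4.31% of all genes passed and 2.85% rose, and their median slope was 0.15 against -0.00241 over all genes. Many PPAR targets are also genes of oxidative fibres, and the score had r = 0.415 with the oxidative phosphorylation score, 0.358 with Myh2 and 0.190 with the fat-cell score.

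Plin5 had the steepest slope on the PPAR target score of the 10 genes. It rose by 0.46 ± 0.04 (SE; limma adjusted p = 9.36e-17), a factor of 1.37 per SD, with r = 0.780 and rho = 0.719 (both permutation p = 1e-05), r = 0.748 once the 2 most extreme animals were left out and 0.683 to 0.916 inside blocks. The score accounted for 60.9% of the variance of Plin5, against 4.37% for the fat-cell score. Plin4 rose by 0.24 ± 0.04 (limma adjusted p = 1.74e-06), with r = 0.557 and rho = 0.494 (both permutation p = 1e-05), r = 0.486 once those 2 were left out and 0.328 to 0.851 inside blocks. Plin3 rose by 0.23 ± 0.04 (limma adjusted p = 0.000178), with r = 0.478 (permutation p = 1e-05), rho = 0.423 (permutation p = 2e-05), r = 0.426 once those 2 were left out and 0.148 to 0.810 inside blocks. All 3 of these perilipins passed in each of 13 alternatives. Plin2 did not pass, with a slope of 0.06 (95% confidence interval -0.00496 to 0.12; limma adjusted p = 0.355). Its r was 0.187 (permutation p = 0.0744) and its rho 0.2405 (permutation p = 0.0217). Whether its slope differs from those of the other 3 perilipins was not tested.

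Among the lipases, Pnpla2 followed the PPAR targets most closely. It rose by 0.20 ± 0.03 (SE; limma adjusted p = 6.20e-09), with r = 0.636 and rho = 0.618 (both permutation p = 1e-05), r = 0.590 once those 2 were left out and 0.491 to 0.734 inside blocks. Lipe rose by 0.19 ± 0.06 (limma adjusted p = 0.0311), with r = 0.330 (permutation p = 0.00129), rho = 0.341 (permutation p = 0.00095), r = 0.328 once those 2 were left out and 0.105 to 0.625 inside blocks. The call for Lipe was lost with the block as a covariate (limma adjusted p = 0.0955), with 3 principal components (0.0880) and with Angptl4, which fat cells also express, left out of the list (0.138), and over its 13 alternatives the adjusted p ranged from 0.000768 to 0.138. Mgll had a slope of 0.10 ± 0.03 with a limma adjusted p of 0.0510 and passed in 7 of 13 alternatives, over which it ranged from 0.0262 to 0.179. G0s2 (slope 0.06, limma adjusted p = 0.766), Dgat1 (-0.04, 0.628) and Dgat2 (0.11, 0.509) did not pass.

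The genes separated when the slopes themselves were compared in 1 model with the adipocyte, slow fibre and PPAR target scores. The median r between genes of a list was 0.667 for the adipocyte, 0.702 for the slow fibre and 0.292 for the PPAR target list. The scores are thus not equally coherent, and the effect of this on differences of slopes per SD was not tested. The difference between the adipocyte and PPAR target slopes passed for 5 of the 10 genes, where 5.59% of all genes passed, 3.24% with a positive and 2.35% with a negative difference. It was positive for Dgat2 (0.67 ± 0.07, SE; limma adjusted p = 7.20e-12), Lipe (0.40 ± 0.03; 1.29e-16), Dgat1 (0.28 ± 0.04; 1.94e-06) and Mgll (0.14 ± 0.04; 0.0121), and negative for Plin5 (-0.39 ± 0.06; 1.59e-06). Each of these 5 passed in all 8 alternatives. It did not pass for Plin4 (-0.18 ± 0.06; limma adjusted p = 0.0617), Plin3 (-0.16 ± 0.07; 0.187), Pnpla2 (-0.09 ± 0.04; 0.177), G0s2 (0.35 ± 0.12; 0.0746) or Plin2 (0.06 ± 0.05; 0.532). Plin4 passed when every sample was centred on the same median (limma adjusted p = 0.0370, in a range of 0.0370 to 0.213 over 8 alternatives), and Pnpla2 passed without the 2 animals most extreme for the fat-cell score (-0.12, limma adjusted p = 0.0332, in a range of 0.0332 to 0.265). The adipocyte slope exceeded the slow fibre slope for Lipe, Dgat2, Mgll, Dgat1 and Pnpla2, by 0.56, 0.54, 0.21, 0.19 and 0.15, with limma adjusted p-values up to 0.000924. Without the same 2 animals Pnpla2 no longer passed for this difference (0.10, limma adjusted p = 0.0654, the highest of its 8 alternatives, which start at 0.000883). Plin2, at 0.13 with a limma adjusted p of 0.0689, passed in 2 of 8 alternatives, over which it ranged from 0.0187 to 0.421. The 5 calls were of the 10 genes, where 2.67% of all genes passed, 1.97% with a positive difference.

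Within that model Pnpla2 rose with both scores over the 92 animals. Its slope was 0.19 on the PPAR target score (limma adjusted p = 8.37e-09) and 0.11 on the adipocyte score (limma adjusted p = 0.00135), and the pair of scores accounted for 52.01% of its variance, against 20.7% for the adipocyte and 40.4% for the PPAR target score alone. Without the 2 animals most extreme for the fat-cell score, Pnpla2 had slopes of 0.18 on the PPAR target score (limma adjusted p = 1.19e-08) and 0.07 on the adipocyte score (limma adjusted p = 0.119), so the latter no longer passed. Lipe kept a slope of 0.11 on the PPAR target score (limma adjusted p = 0.000766) beside 0.51 on the adipocyte score. In the same model 7 of the 10 genes passed for the adipocyte score, where 3.86% of all genes did (3.49% rising), and 5 passed for the PPAR target score, where 4.59% did (2.88% rising). Besides Pnpla2, Plin2 lost its adipocyte call without those 2 animals (0.07, limma adjusted p = 0.174). All 6 predictors together accounted for 88.2% of the variance of Lipe, 73.9% for Dgat2, 66.3% for Plin5 and 61.4% for Pnpla2, but for 23.6% for Plin2 and 26.3% for G0s2. The differences between animals in Plin2 and G0s2 were thus the least described by these markers.

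Among other genes of triglyceride and droplet metabolism, 7 rose with each of the same 2 scores. The list held 34 genes, of which 30 were in the table, and Cideb, Hsd17b13, Mogat1 and Mogat2 were not analysed here. For the fat-cell score 7 of 30 rose and 0 fell, where 3.63% of all genes passed and 3.28% rose, with a median slope of 0.02 against -0.00289 over all genes. The 5 steepest were Agpat2, an acyltransferase of the phosphatidic acid step (0.75 ± 0.05, SE; limma adjusted p = 2.00e-25), Pnpla3, a relative of Pnpla2 (0.52 ± 0.09; 5.16e-06), Ces1d, a carboxylesterase (0.33 ± 0.07; 0.000875), Bscl2, the seipin that shapes budding droplets (0.17 ± 0.03; 5.76e-07), and Cd36, a fatty acid transporter (0.14 ± 0.03; 0.00167). For the PPAR target score 7 of 30 rose and 0 fell, where 4.31% of all genes passed and 2.85% rose, with a median slope of 0.03 against -0.00241. The 5 steepest were Gpat3, which starts glycerolipid synthesis (0.28 ± 0.05; limma adjusted p = 7.11e-06), Lpin1, a phosphatidic acid phosphatase (0.22 ± 0.03; 5.37e-08), Cd36 (0.21 ± 0.03; 4.24e-08), Lpl, lipoprotein lipase (0.20 ± 0.03; 8.95e-08), and Acsl1, an acyl-CoA synthetase (0.18 ± 0.02; 3.19e-09). The Agpat2 slopes differed between the 2 scores by 0.86 ± 0.08 (limma adjusted p = 3.07e-16), and those of Lpin1 by -0.23 ± 0.05 (0.000431).

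The fibre measures were followed by between 1 and 11 of these 30 genes. For the slow fibre score 1 rose (Lpl, 0.15 ± 0.03, SE; limma adjusted p = 0.00166) and 0 fell, where 0.834% of all genes passed. For Myh2 5 rose, led by Lpl (0.18), Cd36 (0.15) and Acsl1 (0.13), and 2 fell, Agpat1 and Aup1 (-0.06 each), where 5.26% of all genes passed. For oxidative phosphorylation 4 rose, led by Lpl (0.14) and the droplet-forming proteins Fitm1 (0.09) and Fitm2 (0.07), and 0 fell, where 9.23% of all genes passed and 6.19% rose. For the fast glycolytic score 4 rose, led by Agpat1 (0.09) and Fitm1 (0.08), and 7 fell, led by Cd36 (-0.20), the lysosomal lipase Lipa (-0.18) and Lpin2 (-0.14). The share of all genes that passed for this last score, 21.7%, is the measure for those 11 of 30.

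**Figure D4:**
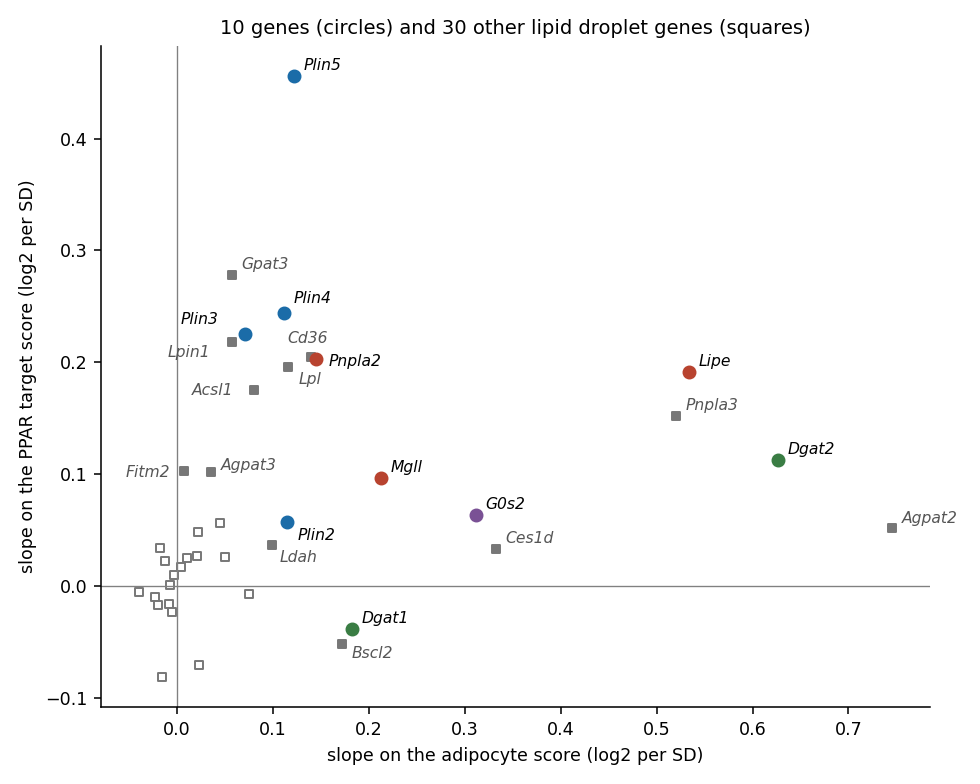
Slope on the adipocyte score (horizontal axis) against slope on the PPAR target score (vertical axis), both in log2 per SD, for the 10 genes (circles, coloured by role as in the plot of levels) and 30 other droplet and triglyceride genes (squares), filled where either slope passed the threshold. Dgat2, Lipe and Agpat2 lie far to the right, Plin5 at the top and Pnpla2 beside Cd36 and Lpl.

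Of the 45 pairs of the 10 genes, 21 passed the threshold in both directions of the fit, all with a positive r. Fewer passed without the 2 animals most extreme for the fat-cell score, and that count is given below with the other alternatives. Over the 45 pairs r ranged from 0.000376 for Plin4 with G0s2 to 0.789 for Lipe with Dgat2. The median r over the 45 pairs was 0.321, against -0.00144 over all pairs of genes in the table. The share of all genes that passed for each of the 10 as predictor was 0.93% for Plin3, 1.42% for G0s2, 1.67% for Plin2, 2.3% for Mgll, 2.85% for Plin5, 3.39% for Lipe, 3.4% for Dgat1, 3.62% for Pnpla2, 5.01% for Dgat2 and 5.46% for Plin4. Lipe took part in 8 of its 9 possible pairs. The highest correlations were those of Lipe with Dgat2 and with Mgll (r = 0.707), with limma adjusted p-values, as the larger of the 2 directions, of 2.95e-18 and 1.45e-11. Plin5 with Pnpla2 had r = 0.574 (limma adjusted p = 2.02e-06) and Plin3 with Pnpla2 r = 0.509 (0.000392).

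With the fat-cell score as a covariate, 5 of the 45 pairs passed, all of them among the 21, and the median r of the residuals was 0.105. They were Plin5 with Pnpla2 (r = 0.550 after removal of the score), Plin3 with Pnpla2 (0.5005), Plin3 with Plin5 (0.470), Plin4 with Plin5 (0.386) and G0s2 with Dgat2 (0.385), the inhibitor and the acyltransferase. In this model the share of all genes that passed was 0.00744% for Lipe as predictor, 0.707% for G0s2, 0.826% for Plin3, 0.952% for Plin2, 1.35% for Dgat2, 2.42% for Mgll, 3.1% for Plin5, 3.53% for Pnpla2, 4.14% for Dgat1 and 5.43% for Plin4. Lipe took part in 0 of the 5, where 1 gene of the whole table passed for it, so nothing about its partners can be read from that count. Its correlation with Dgat2 became 0.165. Pnpla2 with Lipe had a residual r of 0.438 and passed in 1 direction only, with limma adjusted p-values of 0.00191 and 0.0735. The same held for Plin5 with Lipe (0.388, limma adjusted p = 0.00939 and 0.0907) and Plin3 with Plin4 (0.347, limma adjusted p = 0.0581 and 0.0194). The same coefficients in the separate blocks of animals ranged from 0.223 to 0.654 for Plin5 with Pnpla2 and from 0.110 to 0.707 for G0s2 with Dgat2, before removal of the score.

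**Figure D5:**
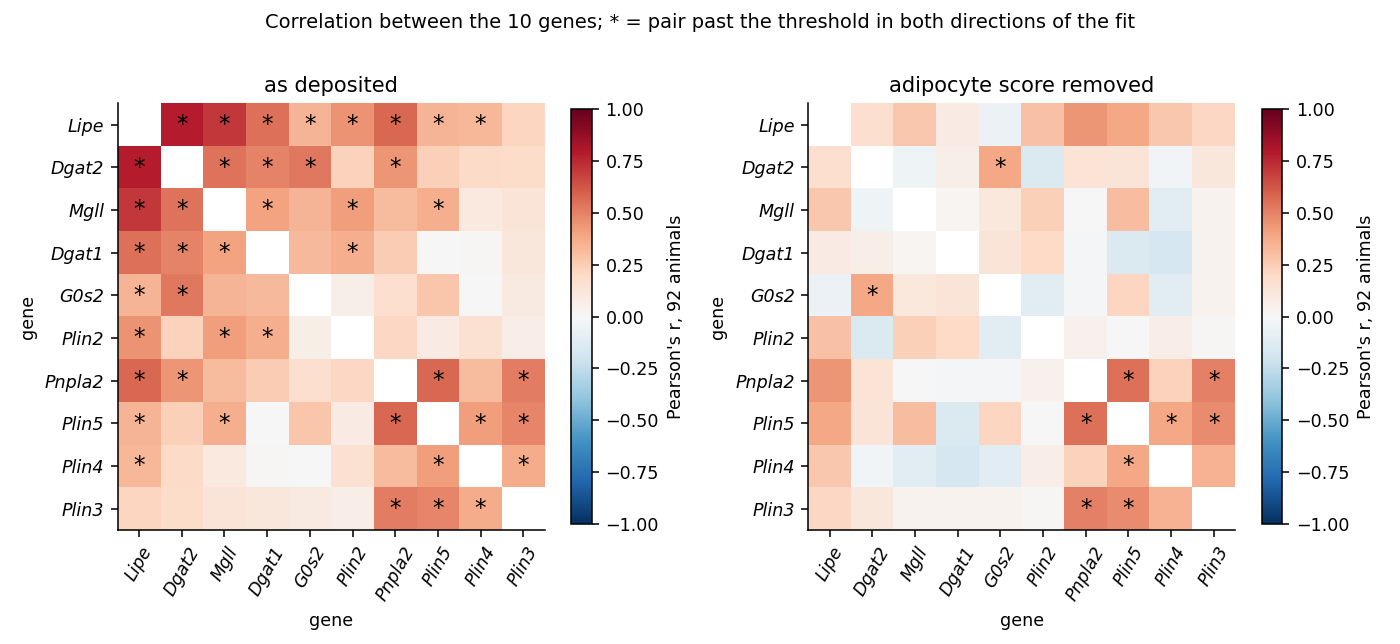
Pearson's r between each pair of the 10 genes over 92 animals, from the deposited values (left) and after removal of the adipocyte score (right), on a colour scale from -1 to 1, with an asterisk where the pair passed in both directions of the fit. In the left panel 21 pairs carry an asterisk, many of them in the corner of Lipe, Dgat2, Mgll and Dgat1, and in the right panel 5 do, of which 4 join Pnpla2, Plin5, Plin4 and Plin3.

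The genes most like each member across the 92 animals, by Pearson's r were sought among genes whose mean reached 1. The values are descriptions over shared libraries. Lipe was nearest to Fabp4 (r = 0.903), Lgals12 (0.896), which codes for a droplet-associated galectin of fat cells, and Plin1 (0.889). Dgat2 was nearest to Aoc3 (0.837), Agpat2 (0.835) and Cidec (0.835), Mgll to Lipe (0.707), Fabp4 (0.696) and Lgals12 (0.674), and Dgat1 to Agpat2 (0.660), Cebpa (0.650), a transcription factor of fat cells, and Fah (0.614). Plin5 was nearest to Slc25a34 (0.794), a mitochondrial carrier, Ech1 (0.760), an enzyme of fatty acid oxidation, and Fabp3 (0.757), the fatty acid-binding protein of muscle. Pnpla2 was nearest to Hadhb (0.678), Etfdh (0.626) and Eci1 (0.622), all of mitochondrial fatty acid oxidation. Plin3 was nearest to Slc25a34 (0.554), Got1 (0.528) and Abhd18 (0.521), and Plin4 to Slc7a8 (0.728), Foxo1 (0.725), a transcription factor active in fasting, and Kdm4a (0.724). By Spearman's rho the value of Plin4 with Foxo1 was 0.437. Plin2 was nearest to the sugar enzymes Pgam1 (0.609) and Pgd (0.590) and to Angptl4 (0.542), with rho of 0.459, 0.391 and 0.525 for these 3, and G0s2 to Dgat2 (0.526), Trarg1 (0.518) and C130074G19Rik (0.508).

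Animal 54, a number given only in the order of the samples, was among the 5 highest animals for 6 genes and had the highest Plin2 (6.36), Lipe (7.02), Dgat1 (4.15) and Dgat2 (6.91). Its fat-cell score was the highest of the 92, at 3.42 SD, and its PPAR target score ranked 48. Animal 62 was among the 5 highest for Plin3, Plin4, Plin5 and Pnpla2, and had the highest Plin4 (9.34), Plin5 (4.61) and Pnpla2 (8.45). Its PPAR target score was the highest, at 3.01 SD, and its fat-cell score ranked 63. Animal 18 was among the 5 highest for Plin3, Lipe, G0s2 and Dgat2, and animal 28 for Plin3, Plin5 and Lipe. Animal 69 had the lowest Lipe (3.17), Dgat2 (1.26) and Pnpla2 (6.47) and the lowest fat-cell score, -2.55 SD. Its PPAR target score was also low, at -2.15 SD, as was its Plin5, at 1.74 against 1.53 in the lowest animal. Animal 68 was also low on both scores, at -2.14 and -2.04 SD.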

How the data were processed

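The table analysed holds log2 expression values of 92 quadriceps samples that the authors deposited as 1 table. Neither header nor labels state the exact scaling, but 2 to the power of the deposited log2 values sums to between 898071 and 1140761 per sample (median 1006085), so they are read as log2 per-million levels. The tools named are bcl2fastq, MultiQC, kallisto 0.50.1 and edgeR, with genome build mm10, per the submitters' processing notes, which give no role or order. Depth, filters and strand are not given in the sources used here. The labels do not state that each sample is a different mouse, so p-values measure the spread between samples, which are called animals.

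Of 13456 lines, 15 repeats were removed, which left 13441 genes, and 0 value columns were without a sample. Slopes on standardised scores (the mean of standardised genes of a list) were fitted with limma 3.58.1 in R 4.3.3, with a trend of variance on mean level, and p-values were adjusted by Benjamini and Hochberg's method over all genes outside the score. Scripts were tested on simulated data. Correlations over 60 relations have two-sided permutation p-values (100000 resamples, scipy 1.17.1), and the limma value is the adjusted one. SD trends are lowess fits (fraction 0.3). Exon lengths and coordinates are from GENCODE M21 (GRCm38), and promoter windows from RefSeq.

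The numbers in the sample titles form 5 runs with gaps over 30 between them (33, 14, 21, 11 and 13 animals), called blocks and treated as a possible batch. Alternatives were the block, 3 principal components, 5 cell-type scores or other scores as covariates, the removal of 2 animals, a filter at a mean of 1, log2(value + 1), centred samples, ranks and list medians, and, added later, the adipocyte score as a covariate and the PPAR target list without Pdk4 or Angptl4, and the removal of 2 animals for differences and pairs. The oxidative phosphorylation and PPAR target scores each include 1 gene that is not reported here. The genes and all lists were chosen with earlier results of these data known. The text names the 10 genes, the list genes a result turns on, up to 5 rising and 5 falling pathway genes per score, the 3 genes most like each of the 10, Plin1 and the adult myosins.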

Additional observations from a re-analysis of the deposited data

How the results depend on the processing

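The 10 genes gave 790 slopes or slope differences under the alternatives. The 27 results past the threshold kept their sign throughout and fell short of it in 6 cases, those of Plin2 and Pnpla2 on the adipocyte score, of Lipe on the PPAR target score and of Pnpla2 for the adipocyte minus slow fibre difference given above. Of 527 values for results not past the threshold, 42 changed sign and 19 passed. No paired analysis was possible because the labels give 1 group. The share of all genes past the threshold moved more. With 3 principal components as covariates it went from 3.63% to 12.2% (230 genes shared) for the adipocyte score, where 755 of 1639 calls rose in place of 441 of 487, from 21.7% to 6.55% for the fast glycolytic score, from 4.31% to 6.53% for the PPAR target score, from 5.26% to 2.35% for Myh2 (rising calls from 391 of 707 to 242 of 316), from 2.67% to 10.6% for the adipocyte minus slow fibre difference (from 264 of 358 to 642 of 1419) and from 5.59% to 3.20% for the adipocyte minus PPAR target difference. Without the 2 most extreme animals it was 2.29% for the adipocyte, 13.8% for the fast glycolytic, 5.94% (from 9.23%) for the oxidative phosphorylation and 2.70% for the PPAR target score, and, removed by their adipocyte score, 1.76% for the adipocyte minus slow fibre difference, with 17 pairs passing. The 5 cell-type scores took the adipocyte minus PPAR target share to 2.62%, and the adipocyte score took the pairs from 21 to 5. The cause was not tested. Centring the samples moved the rising calls from 441 of 487 to 389 of 518 for the adipocyte score, from 1458 of 2917 to 1969 of 3116 for the fast glycolytic score, from 831 of 1240 to 965 of 1247 for oxidative phosphorylation and from 434 of 749 to 386 of 858 for the adipocyte minus PPAR target difference. The depth is unknown, so no counting error could be given.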

Other observations

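The means of Plin5 in the blocks ran from 3.16 ± 0.55 (SD, n = 33) to 3.65 ± 0.49 (SD, n = 13), Pnpla2 from 7.42 ± 0.30 (SD, n = 33) to 7.70 ± 0.41 (SD, n = 11), and Plin3 from 4.42 ± 0.48 (SD, n = 33) to 4.77 ± 0.52 (SD, n = 11). Mgll stayed between 6.05 ± 0.25 (SD, n = 14) and 6.14 ± 0.37 (SD, n = 13). The block of 11 animals, which holds animals 18, 54, 61 and 62, had the widest spread for Plin5 (3.41 ± 0.90), Lipe (5.04 ± 0.82) and Dgat2 (4.81 ± 0.98). These differences were not tested.

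G0s2 was highest in animal 18, at 3.89, where Dgat2 was 6.10 and the fat-cell score 1.63 SD. In animal 54, where the fat-cell score was 3.42 SD and Dgat2 6.91, G0s2 was 2.02, near its median of 1.89.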
